A study of Mus musculus with 4 samples.

Results

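The genes described here encode the machinery that turns an electrical signal at the muscle membrane into calcium release and the store that holds the calcium. They were taken by symbol: Cacna1s, Cacng1, Ryr1, Trdn, Casq1, Casq2, Atp2a1 and Atp2a2, which makes 8 of the 12394 genes that the array's annotation names. Every probe set whose annotation gives 1 gene symbol, that symbol being one of the 8, was read, which gave 16 of the 22690 probe sets. Trdn has 6 of them, Atp2a2 has 4 and each of the others has 1.

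The samples were myogenic cells isolated from the hind limb of C57BL/6 mice, 8 to 12 weeks old, and not cultured, after injury with cardiotoxin, a venom peptide that lyses fibres so that the muscle regenerates. All 4 groups received the toxin and by their labels differ in time, at 2, 3, 5 and 14 days after injury, with 1 Affymetrix mouse 430A array each. The sample records are worded in 2 ways, one for days 2 and 5 and another for days 3 and 14, and they do not say whether the arrays were also run apart. Every step between consecutive days crosses these 2 sets of records, so a difference between the sets cannot be told apart from that between the days; day 5 against day 2 and day 14 against day 3 stay within a set. The antibody SM/C-2.6 is mentioned in the labels, which give neither other sorting markers nor the number or sex of the animals. No uninjured muscle was analysed here, so the level on day 2, not that of resting muscle, is the earliest point of each course.

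In skeletal muscle the L-type calcium channel of the transverse tubule senses the voltage and opens the ryanodine receptor of the neighbouring sarcoplasmic reticulum by direct contact. Calcium held in the reticulum by calsequestrin then flows out and starts contraction, and the SERCA pumps carry it back. Myoblasts switch most of these genes on as they leave the cell cycle and fuse, while SERCA2, the product of Atp2a2, serves the endoplasmic reticulum of nearly every cell.

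The values are MAS5 signals in arbitrary units, scaled to a common trimmed mean. The pooled median of the scaled signals, 42.95, served as a floor to which lower signals were raised before log2 ratios were taken, so "at least" marks a ratio in which 1 array lay under it. A gene is called higher or lower at 2-fold or more between 2 arrays. No day has a replicate, so there is no test, no p-value and no error on any signal, and a call gives size alone. As a guide to measurement scatter, probe sets of 1 gene differed among themselves in their log2 ratio with an SD of 0.36 (day 3 to day 2), 0.37 (day 5 to day 3) and 0.32 (day 14 to day 5), which leaves out the spread between animals. In bulk RNA, fewer cells of a type and less RNA per cell cannot be told apart.

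The arrays carried myogenic RNA on every day. Of 10 myogenic markers, 9 were above the floor on day 2 and all 10 on days 3, 5 and 14, with a summed signal between 7177 and 14462. Over the whole array, 45.0%, 49.5%, 52.0% and 53.5% of probe sets were above the floor on days 2, 3, 5 and 14. Markers of other cell types also read above the floor, and more of them on later days. Of 13 macrophage markers 4, 8, 11 and 12 did so on days 2, 3, 5 and 14, and of 9 fibroblast markers 4, 5, 7 and 8. Of 9 mural and smooth muscle markers 2, 6, 7 and 8 did, and of 9 endothelial markers 0, 1, 3 and 5. Their summed signals ran from 351 on day 2 to 3995 on day 5 for macrophage markers and from 141 on day 2 to 757 on day 14 for endothelial ones. Those of fibroblast markers ran from 1936 on day 2 to 20869 on day 14, and those of mural markers from 895 on day 2 to 11230.4 on day 5. Itgam, Pecam1, Cdh5 and Cnn1 were under the floor on every day, and Ptprc read 59.7 on day 5 and 54.5 on day 14. For Gapdh, the 3' probe set over the 5' one, which rises as RNA gets shorter, gave 2.17, 1.88, 2.87 and 2.84 on days 2, 3, 5 and 14. The same ratio for Actb was 1.8 on day 2 and 2.20, 2.19 and 2.14 on the later days, so the 2 genes went in opposite directions at day 3. The part of these differences in the results below was not tested. The split of calls moves with the scaling: of all calls for day 3 against day 2, 78.8% were higher in the scaled data, 52.6% with the signals as deposited, 20.9% with a common median and 70.4% after quantile normalisation. In the same order of settings, day 5 to day 3 gave 66.1%, 87.4%, 41.0% and 57.2%, and day 14 to day 5 gave 60.8%, 50.5%, 48.3% and 57.8%. The direction of every called ratio of the 8 genes was the same under all of these scalings. They moved the called ratios by less than the 2-fold that a call needs, so a reversal could not arise and this is no check.

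The promoters of the called genes are shown first, since several of the 8 genes were higher on the same day. The RefSeq promoter table (GRCm38.p6) held an entry for 5 of the 8 genes, Cacna1s, Ryr1, Casq1, Casq2 and Atp2a1, and Cacng1, Trdn and Atp2a2 were not matched. The 250 bases before the start of transcription of the 4 genes with both an entry and a signal above the floor are printed 5′ to 3′, with matches to the motifs searched in capitals. Ryr1 lies at chr7:29125152-29125401 on the minus strand, Casq1 at chr1:172219896-172220145 on the minus strand, Casq2 at chr3:102086165-102086414 on the plus strand and Atp2a1 at chr7:126463074-126463323 on the minus strand.
Ryr1: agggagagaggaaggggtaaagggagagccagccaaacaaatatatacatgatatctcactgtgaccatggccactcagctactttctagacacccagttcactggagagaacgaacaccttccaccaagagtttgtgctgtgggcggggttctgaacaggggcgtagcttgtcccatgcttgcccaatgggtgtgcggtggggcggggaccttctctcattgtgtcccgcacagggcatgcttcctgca
Casq1: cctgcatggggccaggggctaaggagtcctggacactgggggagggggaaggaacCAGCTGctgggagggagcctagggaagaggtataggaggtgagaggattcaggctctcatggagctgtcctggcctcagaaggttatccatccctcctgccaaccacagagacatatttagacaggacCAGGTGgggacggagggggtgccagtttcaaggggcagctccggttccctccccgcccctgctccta
Casq2: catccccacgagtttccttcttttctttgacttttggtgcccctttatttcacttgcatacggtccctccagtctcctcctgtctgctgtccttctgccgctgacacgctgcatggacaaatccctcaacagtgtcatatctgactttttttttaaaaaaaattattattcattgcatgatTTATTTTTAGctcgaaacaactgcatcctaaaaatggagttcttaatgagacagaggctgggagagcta
Atp2a1: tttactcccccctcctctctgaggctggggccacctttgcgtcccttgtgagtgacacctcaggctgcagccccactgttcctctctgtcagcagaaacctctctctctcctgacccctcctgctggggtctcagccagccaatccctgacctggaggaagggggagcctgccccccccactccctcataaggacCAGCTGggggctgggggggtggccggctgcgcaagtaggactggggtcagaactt
The motifs searched on both strands were the E-boxes CAGCTG and CACCTG, the class of site that MyoD family factors bind, the MEF2 site, the CArG box of serum response factor and the MCAT element CATTCC. The palindrome CAGCTG, which reads the same on both strands, was found 50 to 55 bases before the start of Atp2a1 and 190 to 195 bases before that of Casq1. It is present in 13.0% of the 32851 RefSeq promoter windows of this length. Casq1 also held the reverse complement of CACCTG at 62 to 67 bases (17.2% of windows hold it on either strand), and Casq2 a MEF2 site at 60 to 69 bases (2.92% of windows). The Ryr1 window held none of these motifs and no window of the 5 held a CArG box (1.47% of windows), while Cacna1s held CAGCTG at 118 to 123 bases and MCAT at 125 to 130 (12.6% of windows hold MCAT). No motif was shared by all 4 printed windows. A match describes the letters and not a bound site.

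The genes of the release unit and its store fell into 3 courses. Cacng1 was 3.54-fold, Atp2a1 9.18-fold and Ryr1 at least 5.95-fold higher on day 3 than on day 2. These genes stayed within 2-fold of their day 3 level through day 14. Casq1 and Casq2 were higher on day 3 and lower again on day 5. Atp2a2 was above the floor on every day in 3 of its 4 probe sets, which went in opposite directions, and Cacna1s and Trdn were under the floor throughout.

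**Figure D1:**
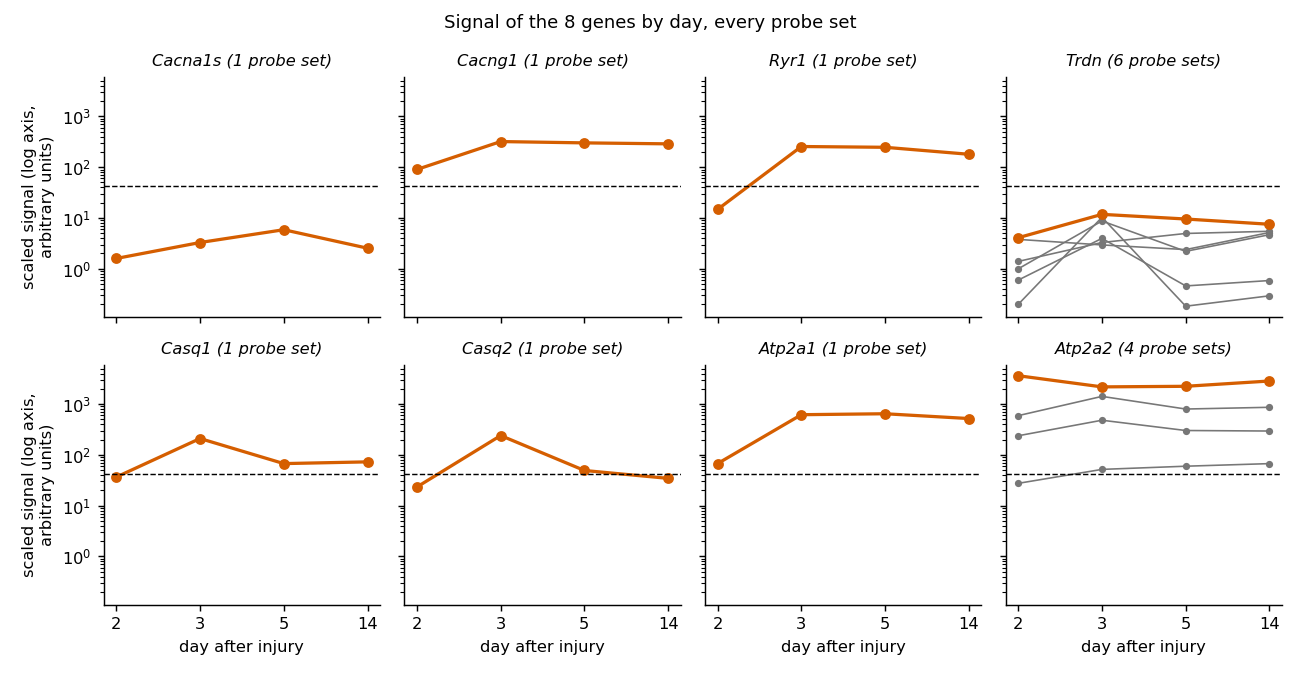
Scaled signal (log axis, arbitrary units) against day after injury (days evenly spaced) for the 8 genes, 1 array a day. Thick orange lines are the probe set that stands for the gene, thin grey lines its other probe sets, and the dashed line is the floor of 42.95. Cacng1, Ryr1 and Atp2a1 step up at day 3 and stay up, Casq1 and Casq2 peak on day 3, and Cacna1s and all 6 Trdn probe sets lie under the floor.

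Among the 8 genes, the L-type channel was measured through its gamma subunit alone. Cacng1, which encodes the gamma-1 subunit of the skeletal L-type channel, read 90.3, 319.8, 301 and 288 on days 2, 3, 5 and 14. Day 2 stood apart below the other 3 days, which lay within 1.11-fold of each other. Day 3 was 3.54-fold above day 2 (log2 ratio 1.82), day 5 was 3.34-fold above it and day 14 3.19-fold. With a common median as scaling the last of these was no longer 2-fold, at a log2 ratio of 0.83.

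Cacna1s, which encodes the pore-forming alpha-1S subunit that senses the voltage and touches the ryanodine receptor, had a single probe set and scaled signals between 1.6 and 5.87. None of the 4 days reached the floor, so no ratio is given and its order over the days has no meaning. Among the other channel subunits, Cacnb1, the beta subunit, stayed under the floor as well, with 41.3 on day 3 as its highest signal. Cacna2d1, the alpha-2/delta subunit, read above it on day 5 alone, at 55.9. Levels of different probe sets are not comparable, so a low signal of Cacna1s beside that of Cacng1 does not say that its transcript was scarcer.

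Ryr1, the ryanodine receptor that releases calcium from the sarcoplasmic reticulum of skeletal muscle, read 14.8 on day 2, under the floor, and 255 on day 3. It read 247 on day 5 and 179.8 on day 14. All 3 later days were above the day 2 signal with no value in between. Day 3 was at least 5.95-fold above day 2, day 5 at least 5.74-fold and day 14 at least 4.18-fold. From day 5 to day 14 the log2 ratio was -0.46, short of a call. The single Ryr1 probe set cannot show whether the whole of this very long transcript was present.

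The 2 other ryanodine receptor genes gave little signal. Ryr3, an isoform that skeletal muscle carries early in life, lay under the floor on days 2 and 3 and read 76.3 on day 5 and 79.9 on day 14, which is at least 1.78-fold and at least 1.86-fold above day 3. Ryr2, the cardiac isoform, stayed under the floor on every day, between 1.65 and 12.0.

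Trdn encodes triadin, which ties calsequestrin to the ryanodine receptor at the junction. Its 6 probe sets read between 0.18 and 11.8, all under the floor on all days. The highest of these 24 signals came from probe set 1451801 on day 3. No change in triadin could be measured on these arrays at this floor, and the values do not show that the gene was silent.

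Among the genes called higher on day 3, those of calsequestrin, the calcium-binding protein that fills the lumen of the store, did not hold their level. Casq1, the isoform of fast muscle, read 36.6, 210.0, 67.3 and 72.8 on days 2, 3, 5 and 14, with day 2 under the floor. Day 3 stood alone at the top, and days 5 and 14 lay close together. Day 3 was at least 4.89-fold above day 2, and day 5 was 3.12-fold below day 3 (log2 ratio -1.64). Day 14 was 2.88-fold below day 3, and at least 1.70-fold above day 2, which is no call.

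Casq2, the isoform of heart and slow muscle that developing skeletal muscle also makes, followed the same outline. It read 23.3, 240.2, 49.3 and 34.5 on days 2, 3, 5 and 14, with days 2 and 14 under the floor. Only day 3 stood clear of the floor, as the signal on day 5 was 1.15 times it. Day 3 was at least 5.59-fold above day 2, day 5 was 4.88-fold below day 3 (log2 ratio -2.29) and day 14 at least 5.59-fold below day 3. The Casq2 probe set has the suffix s, which marks probes that can match more than 1 transcript, so a contribution of another transcript was not tested. Of the markers of heart and slow muscle, Myh6, Myh7, Myl2, Tnni3, Nppa, Gata4 and Nkx2-5 were under the floor on every day, and Myl3 reached 46.7 on day 3 and 49.0 on day 14.

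Of the pump genes, Atp2a1 stepped up at day 3. It encodes SERCA1, the calcium pump of fast muscle, and read 67.4, 618, 646 and 519 on days 2, 3, 5 and 14. Day 2 lay far below the other days, and these lay within 1.24-fold of each other. Day 3 was 9.18-fold above day 2 (log2 ratio 3.20). The ratios of Ryr1, Casq1 and Casq2 at this step are lower bounds, so they cannot be ranked against it. With the floor at 0.5 times the pooled median, the log2 ratios were 3.57 for Ryr1, 3.36 for Casq2 and 2.52 for Casq1. Day 5 was 9.58-fold and day 14 7.71-fold above day 2.

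Atp2a2 encodes SERCA2, made as a slow muscle and heart form and as a general form that differ at the 3' end of the transcript. Probe set 1427250, the brightest of its 4, read 3622, 2183, 2242 and 2849.6 on days 2, 3, 5 and 14. It was highest on day 2 and lowest on day 3, with a log2 ratio of -0.73 for day 3 against day 2, short of a call. With a common median as scaling that ratio was -1.23, past 2-fold. Probe set 1416551 went the other way: it read 593, 1419, 799 and 865 on days 2, 3, 5 and 14, which is 2.39-fold higher on day 3 than on day 2. Probe set 1452363 read 238, 481, 302 and 295 on the same days, 2.02-fold higher on day 3. Probe set 1427251 was under the floor on day 2, at 27.5, and read 51.8, 59.8 and 67.3 on days 3, 5 and 14. So 1 of the 4 probe sets was below its day 2 signal on every later day and the other 3 were above it. The log2 ratios of the outer 2 for day 3 against day 2, -0.73 and 1.26, lie further apart than the SD of 0.36 between probe sets of 1 gene. The sources used here do not say which form of the transcript each probe set reads. The mean over the 4 probe sets gave a log2 ratio of 0.45 for this step, so the direction for Atp2a2 as a gene depends on the probe set.

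**Figure D2:**
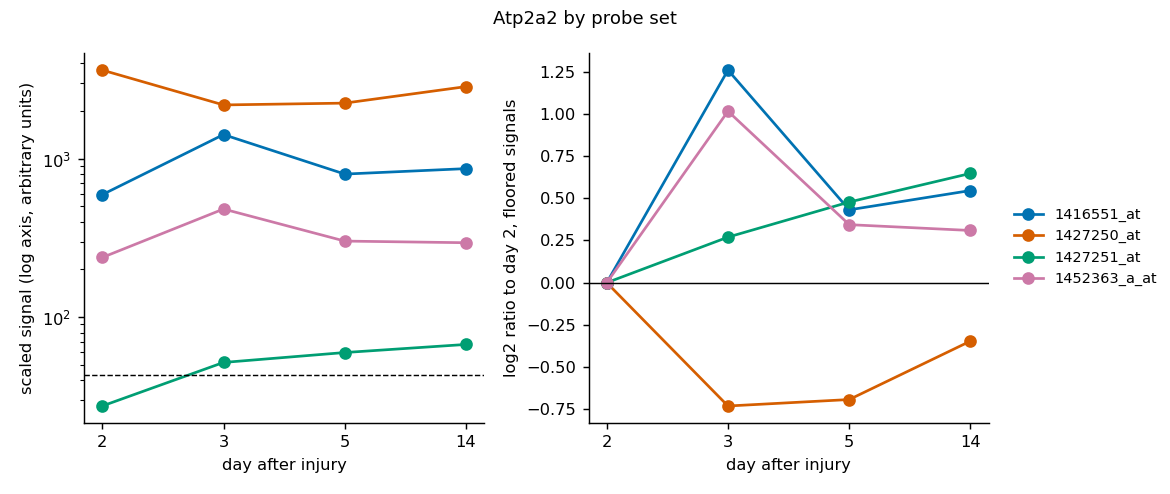
Scaled signal (left, log axis, arbitrary units, dashed line at the floor) and log2 ratio to day 2 of floored signals (right) against day after injury for the 4 Atp2a2 probe sets, 1 array a day. On day 3 probe set 1427250 is below its day 2 signal (log2 ratio -0.73), while 1416551 and 1452363 are above theirs (1.26 and 1.02).

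The steps between days can now be set against all genes. Between days 2 and 3, 5 of the 6 measured members were higher (Cacng1, Ryr1, Casq1, Casq2 and Atp2a1) and none was lower. Atp2a2, read from its brightest probe set, was within 2-fold. Of all measured genes, 6.69% were called higher and 1.8% called lower. The median log2 ratio of the 6 was 2.39 and that of all measured genes 0.06. For 3 of the 5, Ryr1, Casq1 and Casq2, day 2 was at the floor and the ratio is a lower bound. Members that entered because they were high on day 3 had to differ, so this count describes these arrays and is no test of the list.

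Between days 3 and 5, 2 members were lower, Casq1 and Casq2, and none was higher, against 5.97% of all genes called lower and 11.6% called higher. The median of the 6 was -0.07 and that of all genes 0.06. Of 7523 floored ratios at this step, 16 were lower than that of Casq2, a count that leaves out genes whose bound hides a lower ratio. The ratios of Cacng1, Ryr1, Atp2a1 and the brightest Atp2a2 probe set lay between -0.09 and 0.06. The other Atp2a2 probe sets gave -0.83 (1416551), -0.67 (1452363) and 0.21 (1427251). This step shares the day 3 array with the one before it, so a chance high value on that array would enter both with opposite sign.

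Between days 5 and 14 no member was called, against 4.81% of genes higher and 3.1% lower. The log2 ratios ran from -0.46 for Ryr1 to 0.35 for Atp2a2, with a median of -0.13 against 0.01 for all genes. For Casq2 the ratio is a bound, as day 14 was under the floor.

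**Figure D3:**
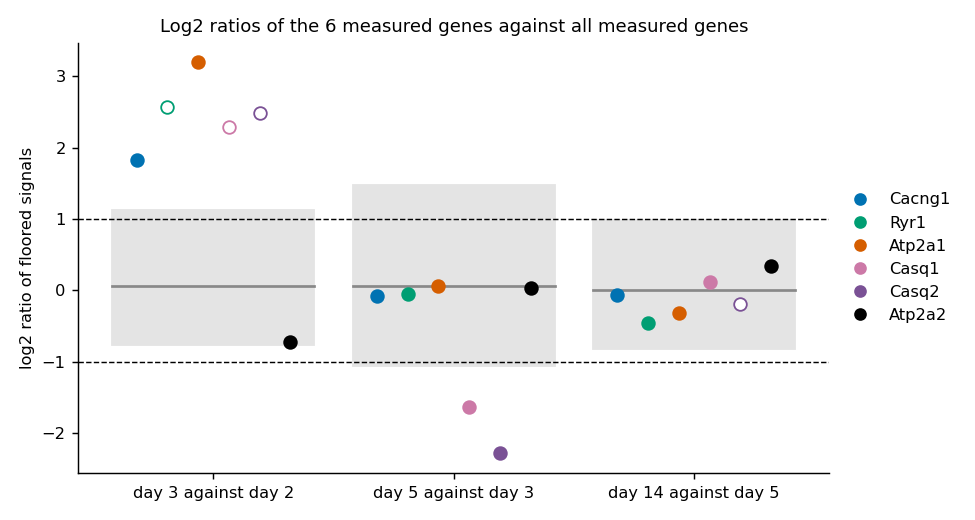
Log2 ratio of floored signals for the 6 measured genes at the 3 consecutive steps, 1 array a day. Open circles are ratios with 1 side at the floor, grey boxes span the 5th to 95th percentile of all measured genes with their median as a line, and dashed lines mark 2-fold. At day 3 against day 2, 5 genes lie above the box, and at day 5 against day 3 Casq1 (-1.64) and Casq2 (-2.29) lie below it.

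Against day 2, Cacng1, Ryr1 and Atp2a1 were also called on days 5 and 14, while Casq1 and Casq2 were not. With the floor at 0.5 times the pooled median, Casq2 was past 2-fold on day 5 (log2 ratio 1.08). With a common median the day 14 call of Cacng1 was lost (0.83). On day 5 against day 2, 3 of 6 measured members were higher (Cacng1, Ryr1 and Atp2a1) and none was lower, against 19.8% and 11.4% of all genes. On day 14 against day 2 the same 3 genes were called of 5 measured, against 22.8% of all genes called higher and 14.8% lower, Casq2 being at the floor on both days. On day 14 against day 3, Casq1 and Casq2 were lower and no member was higher, against 11.5% and 16.3% of all genes. The log2 ratio of Ryr1 was then -0.51, that of Atp2a1 -0.25 and that of Cacng1 -0.15. Within the 2 sets of records, then, Cacng1, Ryr1 and Atp2a1 were higher on day 5 than on day 2, and Casq1 and Casq2 lower on day 14 than on day 3, while the higher signal of Casq1 and Casq2 on day 3 than on day 2 was seen only across the sets. All of these comparisons share arrays with the steps above and add no independent evidence.

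Most early contractile genes lost signal after day 3, as Casq1 and Casq2 did. The 14 measured were Myh3, Actc1, Acta1, troponin and light chain genes and others. All 14 were at least 2-fold higher on day 3 than on day 2, with a median log2 ratio of 3.92, against 6.69% of all genes. Myh3, Tnnc1, Tnni1, Myl1, Myl4 and Mybph were under the floor on day 2, so their ratios are lower bounds. They were measured at this step only because they were high on day 3, and Myh8, under the floor throughout, was left out. The count and median describe these arrays and are no test of the list. On day 5 against day 3, 9 of the 14 were lower and none higher (median -1.79), against 5.97% of all genes lower. On day 14 against day 3, 13 of 14 were lower, all but Actc1 (median -3.20), against 11.5% of all genes. The count for day 5 against day 3 was 8 with the signals as deposited and 10 with the other scalings. Of the 468 genes called higher on day 3 than on day 2, 51 were called lower on day 5 than on day 3. That is 10.9% of the 468 and 0.73% of measured genes, and it includes 9 contractile genes, Casq1 and Casq2. Another 178 stayed within 2-fold of day 3 on days 5 and 14 and of each other. That is 38.0% of the 468 and 2.55% of measured genes, among them Cacng1, Ryr1 and Atp2a1 and 1 contractile gene. No test of the difference between these sets was possible without replicates.

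**Figure D4:**
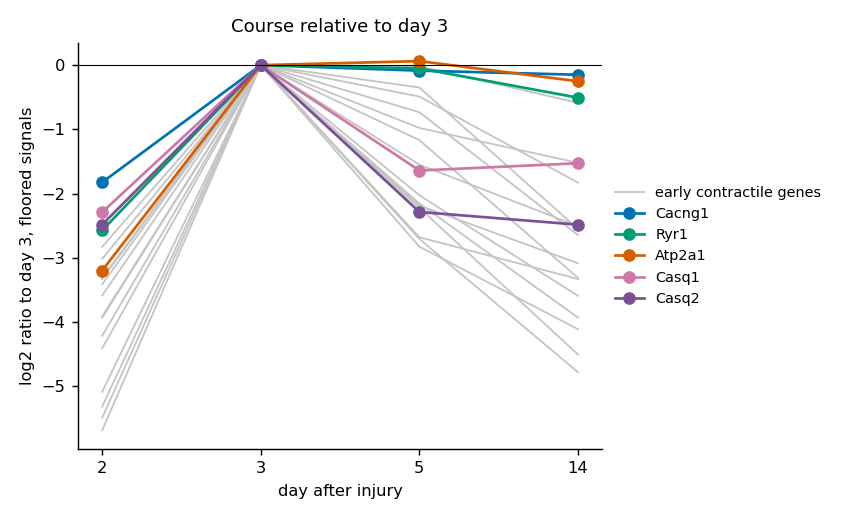
Log2 ratio to day 3 of floored signals against day after injury for the 5 genes called higher on day 3 (coloured points) and the 14 measured early contractile genes (grey lines), 1 array a day. On day 14 Cacng1 (-0.15), Atp2a1 (-0.25) and Ryr1 (-0.51) are within 2-fold of day 3. Casq2 (-2.48), Casq1 (-1.53) and 13 of the 14 contractile genes are at least 2-fold below it.

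The adult fibre genes ranged from under the floor to bright. Actn3, the alpha-actinin of fast fibres, read 891, 2429.8, 2864 and 1489 on days 2, 3, 5 and 14. Eno3, the muscle enolase, read 4364, 4392, 829 and 148, and was 29.7-fold lower on day 14 than on day 3. Myh1, a myosin heavy chain of fast fibres, was under the floor on day 2 and read 389.7, 62.3 and 234.7 on days 3, 5 and 14. These values come from 1 of its 3 probe sets, with the suffix x, which marks probes that may also match other transcripts. A contribution of another transcript to Myh1 was not tested. Pygm, muscle glycogen phosphorylase, was under the floor on day 2 and read 45.8, 98.8 and 144.9 on the later days. Myh4 and Myh2, the myosin heavy chains of fast adult fibres, were under the floor on every day, Mb, myoglobin, reached 44.7 on day 5 alone, and Ckm, muscle creatine kinase, read under the floor on day 2 and 145.5, 142 and 96.5 on days 3, 5 and 14. Of the 14 genes of this list on the array, 2, 6, 8 and 7 were above the floor on days 2, 3, 5 and 14. The shares of all probe sets above it were 45.0%, 49.5%, 52.0% and 53.5% on the same days. Pvalb, the calcium buffer of fast fibres, was above the floor only on day 14, at 57.3.

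The other proteins of the triad, the junction of tubule and reticulum, did not move as a block. Of 17 genes fixed for this list 15 were on the array. On day 3 against day 2, 2 of 8 measured were higher and none was lower (median log2 ratio 0.56), against 6.69% and 1.8% of all genes: Cav3, the caveolin of muscle, at least 2.85-fold to 122, and Tmem38a, the potassium channel TRIC-A of the reticulum, at least 2.38-fold to 102. On day 5 against day 3, 1 of 11 was higher and 2 were lower (11.6% and 5.97% of all genes), with a median of -0.11 that was 0.19 with the signals as deposited. The count of lower genes was 1 with the signals as deposited, where Cav3 just missed 2-fold, 4 with a common median and 3 after quantile normalisation. Mtm1, a lipid phosphatase needed for triads, was at least 6.59-fold lower and Cav3 2.45-fold lower. Rtn2, a reticulum shaping protein, was 2.54-fold higher. The Mtm1 ratio comes from 1 of its 3 probe sets. On day 14 against day 5 none of 10 was called, against 4.81% of all genes higher and 3.1% lower, so this shows nothing particular to the list.

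Several triad genes were lower at the end of the course than on day 3. Of 9 measured on day 14 against day 3, 4 were lower and 1 higher (median log2 ratio -0.84), against 11.5% and 16.3% of all genes and a median over all genes of 0.09. Bin1, which bends the membrane into tubules, read 562, 1014, 521 and 321 on days 2, 3, 5 and 14, and was 3.16-fold lower on day 14 than on day 3. Tmem38a was at least 2.38-fold lower and Cav3 at least 2.85-fold lower, both under the floor on day 14. Jph2, a junctophilin that bridges the 2 membranes, read 53.8, 49.8 and 46.5 on days 3, 5 and 14, close to the floor, and Jph1 and Sypl2 stayed under it. Asph, whose locus also encodes junctin, a partner of triadin, read 160.3, 188, 101 and 105 without a call. Fkbp1a, the immunophilin bound to Ryr1, was bright on all days, between 1838 and 2681.

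Partners of the store gave few measurable members. Of the 12 genes of the list 7 were on the array and 2 to 4 were measured at each consecutive step. Hrc, a histidine-rich calcium-binding protein of the reticulum, was at least 2.31-fold higher on day 3 than on day 2, at 99.2, and read 54.3 and 53.5 on days 5 and 14. S100a1, a calcium sensor that binds the ryanodine receptor and SERCA, was 2.32-fold higher on day 3 and read 72.1, 167, 229.6 and 171 over the 4 days. With a common median or quantile normalisation the day 3 call of S100a1 was lost (log2 ratio 0.71 and 0.92) and that of Hrc was kept. Sln and Pln, the small peptides that hold SERCA back, were under the floor on every day. Atp2a3, the SERCA3 pump found in blood and endothelial cells among others, read 50.4 on day 5 and 158.7 on day 14, 3.15-fold higher. At this step 3 of 5 measured endothelial markers were also called higher, against 4.81% of all genes. The part of blood or endothelial cells in the Atp2a3 signal was not tested. With the floor at 2 times the pooled median the calls given here for Atp2a3, Hrc and S100a1, and those above for Cav3 and Tmem38a, were lost.

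Most calcium genes of the general endoplasmic reticulum were within 2-fold at each step, as were most measured genes. Of 15 on the array, 12 of 14 measured were within 2-fold on day 3 against day 2, 13 of 15 on day 5 against day 3 and 14 of 15 on day 14 against day 5, and none was lower at any of these steps. The 2, 2 and 1 genes called higher stand against 6.69%, 11.6% and 4.81% of all genes, so these counts are near the background and show nothing particular to the list. With a common median 1 was lower on day 3 than on day 2. Calr, calreticulin, which buffers calcium in the lumen of most cells, read 1045, 1125, 1446 and 1868 on days 2, 3, 5 and 14. On day 3 against day 2, Orai1, the pore of store-operated calcium entry, was 2.26-fold and Pdia4, a disulfide isomerase, 2.16-fold higher, calls that were both lost with the signals as deposited, a common median or quantile normalisation. Itpr3 was at least 3.29-fold higher on day 5 than on day 3, and Itpr2 was 2.25-fold higher on day 5 than on day 3 and 2.38-fold higher on day 14 than on day 5. The first call of Itpr2 was lost with a common median (log2 ratio 0.93) or quantile normalisation (0.98), and with the floor at 2 times the pooled median it and that of Itpr3 were both lost. Both genes encode inositol trisphosphate receptors, the calcium release channels of non-muscle cells and early myoblasts. Stim1, the calcium sensor that opens Orai1, was above the floor on days 3 and 5 alone, at 49.5 on day 3.

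The channels and transporters of the surface membrane were mostly under the floor. Of 9 on the array, 1 was above it on days 2, 3 and 5 and 2 on day 14. Clcn1, the chloride channel of muscle, Kcnj2, Kcnj11, Kcnj12, Kcna7 and the sodium-calcium exchangers Slc8a1 and Slc8a3 did not reach it on any day. Atp1b1, a subunit of the sodium pump, read 1065, 1326, 533 and 283 on days 2, 3, 5 and 14, and was 2.49-fold lower on day 5 than on day 3.

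**Figure D5:**
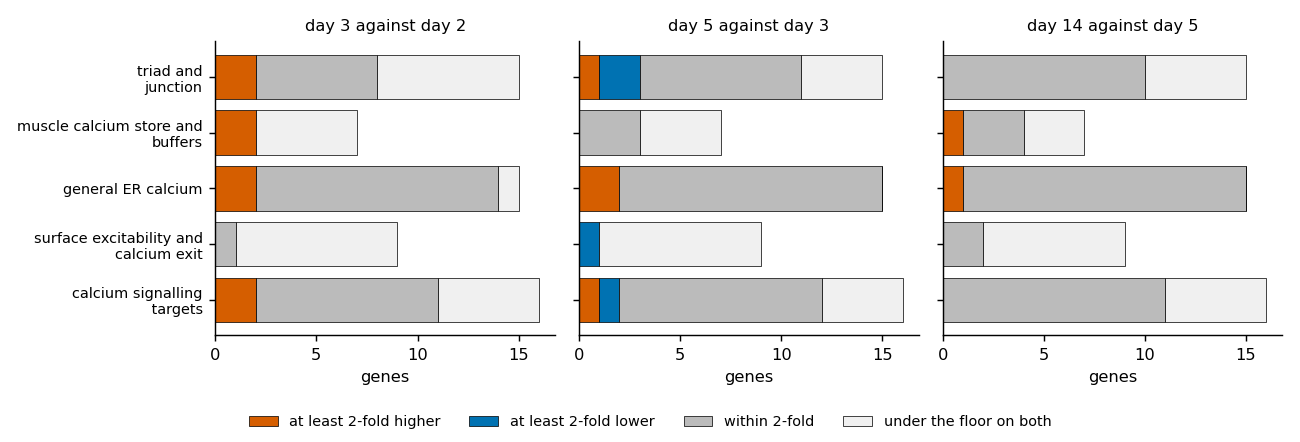
Number of genes called at least 2-fold higher, at least 2-fold lower, within 2-fold, or under the floor on both arrays, for 5 lists of calcium-handling genes at the 3 consecutive steps, 1 array a day. Most genes of each list are within 2-fold or under the floor; the 15 general endoplasmic reticulum genes (ER) are nearly all measured and the 9 surface genes nearly all under the floor.

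Likeness of course was measured as the root mean square difference between log2 profiles, each centred on its own mean over the 4 arrays, so a small value means parallel courses. With 4 points, floored values and a whole array of genes to choose from, close matches are easy to find, and they say nothing of shared function. The profile nearest to that of Cacng1 was that of Parp3 (0.04), ahead of Tbx15 (0.09) and Cap2 (0.10). Nearest to Ryr1 were Cdh15, the adhesion molecule M-cadherin (0.20), Pdlim3 (0.21) and Cap2 (0.22), and nearest to Atp2a1 Fam214b (0.13), Pdlim3 (0.17) and Iffo1 (0.34). Casq1 was matched most closely by Ablim1 (0.02), Erbb3 (0.23) and the muscle glycolytic enzyme Pgam2 (0.28), and Casq2 by Mgst2 (0.21), Erbb3 (0.27) and Pgam2 (0.32). Pptc7 (0.05), Rel (0.06) and Tbp (0.06) came nearest to the brightest Atp2a2 probe set. Among the members themselves, Ryr1 lay 0.32 from Cacng1 and 0.34 from Atp2a1, and Casq1 0.37 from Casq2, while Casq2 and Atp2a1 were 1.35 apart and Atp2a1 and Atp2a2 1.63.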

How the data were processed

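RNA of 1 sample a day was hybridised to Affymetrix mouse 430A arrays after small-sample labelling, per the labels' protocols. The deposited intensities, 1 per probe set and array from 0 to 15685.5, were made with MAS5 by the authors, per the submitters' processing notes; its settings, scaling target and detection calls are not given in the sources used. There is no depth to arrays, and precision is limited by their number.

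Scaling to a common 2% trimmed mean was applied (factors 0.997, 1.13, 0.917 and 0.976 on days 2, 3, 5 and 14), values under the pooled median were floored, and log2 ratios were taken with Python 3.11.15 and pandas 2.3.3. The median deposited intensities were 29.6, 36.8, 53.5 and 54.1. The values were not centred and stand on a linear scale. Ratios need a signal above the floor on at least 1 of 2 arrays. A gene is represented by its probe set of highest mean log2 signal. List genes with several probe sets, among them Mtm1, Bin1, S100a1, Itpr2 and Atp1b1, were thus read from 1, and their other probe sets are not given here. The probe sets used for S100a1 and Itpr2 have the suffix s and that for Atp1b1 the suffix x. Probe sets were named through GEO's platform annotation: 20393 had 1 symbol, 691 several and 1606 none. The ratio step was tested on simulated data.

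Named genes were all 8 members with every probe set, up to 4 called genes of each list by size, the 3 nearest profiles of each member, and markers of other cell types; further list genes were named after their values were seen. Members and lists were chosen with earlier results of these data known. 9 alternative settings were tried, and 1 more was added after seeing the data.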

Additional observations from a re-analysis of the deposited data

How the results depend on the processing

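Counts of members called higher stayed within 1.5 times of their value in each of the 6 comparisons under the 9 alternative settings and the added one. No called ratio changed sign, but this is no check. The scalings moved called ratios by less than a call needs, and changing the floor cannot reverse a ratio. The count of lower members was 1 in place of 0 with a common median for day 3, day 5 and day 14 against day 2, each time Atp2a2, and at 1.5-fold for day 3 and day 5 against day 2. At 3-fold it was 1 in place of 2 for day 14 against day 3. Of 35 single ratios, those that moved by more than the SD between probe sets of 1 gene numbered 0 with the signals as deposited, 0 after quantile normalisation and 11 with a common median. With the floor at 0.5 times the pooled median 5 moved, and with it at 2 times 7 of 30. With log2(signal + 16) 4 moved, and with the mean over probe sets 4. Atp2a2 alone of the measured members has several probe sets, so under that mean only its 6 ratios could move. Bounds against the floor move with it by construction: that of Ryr1 for day 3 against day 2 ran from 1.57 to 3.57 on the log2 scale. With Atp2a2 read from probe set 1416551, chosen after seeing the data, its ratio for day 3 against day 2 was 1.26 and 6 members were higher at this step. No paired analysis was possible because each day has 1 array, and no replicate could be left out. Signals near the floor limit what can be said of Cacna1s, Trdn and Casq2.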

Other observations

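Targets of calcium signalling were described as a further list. Of 16 genes, all on the array, 2 of 11 measured were higher on day 3 than on day 2, against 6.69% of all genes: Capn1, a calcium-activated protease, 3.26-fold, from 44.6 to 145.6, and Mylk, myosin light chain kinase, at least 2.73-fold, to 117. On day 5 against day 3, Capn1 was 2.60-fold lower and Nfatc1, a transcription factor that calcineurin activates, 2.36-fold higher, 1 of 12 each way against 5.97% of all genes lower and 11.6% higher. On day 14 against day 5 none of 11 was called, against 4.81% higher and 3.1% lower. These counts are too small to set the list apart from other genes. On day 14 against day 3, 5 of 12 were higher and 1 lower, against 16.3% and 11.5% of all genes. That count of higher genes moved with the scaling. It was 5 of 13 with the signals as deposited, 3 of 13 after quantile normalisation and 0 of 13 with a common median. Rcan1, an inhibitor of calcineurin, read 138, 209.5, 399.8 and 504.5 on days 2, 3, 5 and 14. The calcineurin subunits Ppp3ca, Ppp3cb and Ppp3r1 and the protease Capn2 were above the floor on every day with no call at any consecutive step. With the floor at 2 times the pooled median the calls of Capn1, the call of Mylk on day 3 and that of Nfatc1 were lost.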
